A study of Mus musculus with 22 samples.

Results

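The 10 genes described here are the mouse NF-kB subunits and the inhibitors and feedback genes that work on them: Nfkb1, Nfkb2, Rela, Relb, Rel, Nfkbia, Nfkbie, Nfkbiz, Tnfaip3 and Bcl3. They were picked by gene symbol, 10 of the 52459 genes listed in the bulk and J2 count tables, and all 10 were found in each of the 4 tables. The study took E14.5 fetal livers from Vav-Cre Mettl3fl/fl mice (KO), which lack the RNA methyltransferase METTL3 in blood-forming cells, and from Mettl3fl/fl mice without Vav-Cre (WT). Both groups carry the floxed allele, and the WT embryos carry no Cre, so a difference caused by Cre itself cannot be told apart from one caused by the loss of Mettl3. Vav-Cre acts in blood cells, so the hepatocytes and other cells outside the blood lineage of a whole KO liver keep the gene.

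Lin-Sca-1+c-Kit+ (LSK) cells, a sorted fraction rich in blood stem and progenitor cells, were profiled by bulk RNA sequencing (3 KO and 3 WT libraries), by CUT&RUN for H3K4me3, a histone mark of active gene starts (2 KO and 2 WT), and by single-cell RNA sequencing (2 KO and 2 WT). Whole livers were each split into a pull-down with J2, an antibody against double-stranded RNA, and an INPUT part extracted without pull-down (2 KO and 2 WT animals). The study calls its replicates biological.

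NF-kB transcription factors are dimers of p50 (from Nfkb1), p52 (from Nfkb2), RelA, RelB and c-Rel. In resting cells they are held in the cytoplasm by IkB proteins, of which Nfkbia and Nfkbie encode IkB-alpha and IkB-epsilon. Signals from cytokine receptors, Toll-like receptors and RNA sensors destroy the IkB proteins and let the dimers enter the nucleus, where they switch on, among many targets, their own inhibitors. Bcl3 and Nfkbiz encode nuclear IkB-like partners of p50 and p52 dimers, and Tnfaip3 encodes A20, an enzyme that edits ubiquitin and shuts the signal down. In fetal blood progenitors tonic inflammatory signals through this pathway take part in the emergence of stem cells.

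Totals were 20088100 to 40641081 counts in bulk libraries, 3100910 to 5251496 in J2 and INPUT libraries, 11508749 to 14451593 over the strongest H3K4me3 window of each gene, and 7264127 to 11638238 over the kept cells of a single-cell library. Mettl3 itself was at 4.13 to 6.31 CPM (counts scaled to a common library size with TMM factors) in the bulk KO libraries, against 33.2 to 43.0 CPM in the bulk WT libraries. In INPUT it was at 6.70 and 26.9 CPM in KO livers, against 29.4 and 24.9 CPM in WT livers, so the groups overlapped. In the single-cell sums it was higher in the libraries labelled KO (64.3 and 52.2 CPM) than in those labelled WT (36.3 and 33.3 CPM). In that assay mRNA was caught on beads in microwells, and neither the part of the transcript read nor the deleted part of Mettl3 is given in the sources used here, so that value does not check the labels. The 10 interferon-stimulated genes used as a second look at those libraries summed to 395 to 475 CPM in the libraries labelled KO, against 99.7 to 108 CPM in those labelled WT, the same direction as in bulk (400 to 588 CPM in KO, 117 to 129 CPM in WT). Both single-cell libraries labelled KO expressed Xist and both labelled WT expressed Y-linked genes, so in that table the genotypes cannot be told apart from the sexes. The sexes were not balanced in bulk either. Of 5 genes of a sex list, bulk KO 1 had 1 above 0 and every other bulk library had all 5, and 3 were called lower in KO. In INPUT 4 and 1 of the 5 were above 0 in KO livers, against 1 and 5 in WT livers. The part of sex in the values below was not tested.

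Promoter sequence from RefSeq (GRCm38.p6) was at hand for 7 of the 10 genes, in 10 windows that run from 250 bases before to 50 bases after an annotated start; Nfkb1, Relb and Nfkbiz had none. The 4 windows printed here belong to the genes on which the results below turn, or whose start holds the core NF-kB motif. Capitals mark matches, on either strand, to the degenerate 10-base kB consensus, which includes every match to the core motif, which reads GGGA, any 2 bases, TTCC. The sequences read 5′ to 3′ along the gene's strand.
Bcl3, chr7:19822706-19823005, minus strand: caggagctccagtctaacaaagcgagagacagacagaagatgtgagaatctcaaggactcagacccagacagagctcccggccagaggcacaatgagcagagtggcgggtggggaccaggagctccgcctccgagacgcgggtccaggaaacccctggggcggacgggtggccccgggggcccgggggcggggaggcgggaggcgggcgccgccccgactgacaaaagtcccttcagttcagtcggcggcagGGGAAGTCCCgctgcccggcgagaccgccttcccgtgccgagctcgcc
Nfkbia, chr12:55492598-55492897, minus strand: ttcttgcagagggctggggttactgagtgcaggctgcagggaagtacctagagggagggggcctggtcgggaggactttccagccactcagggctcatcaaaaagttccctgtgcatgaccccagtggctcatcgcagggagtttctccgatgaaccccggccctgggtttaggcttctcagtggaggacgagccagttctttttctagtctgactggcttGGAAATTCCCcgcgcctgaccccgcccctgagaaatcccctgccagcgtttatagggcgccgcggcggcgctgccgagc
Nfkb2, second window, chr19:46305445-46305744, plus strand: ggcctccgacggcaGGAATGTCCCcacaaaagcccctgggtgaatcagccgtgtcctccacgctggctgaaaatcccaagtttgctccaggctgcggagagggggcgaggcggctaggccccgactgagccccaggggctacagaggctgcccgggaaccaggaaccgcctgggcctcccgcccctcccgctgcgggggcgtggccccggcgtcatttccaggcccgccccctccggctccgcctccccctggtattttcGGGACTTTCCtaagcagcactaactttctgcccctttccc
Rel, chr11:23770920-23771219, minus strand: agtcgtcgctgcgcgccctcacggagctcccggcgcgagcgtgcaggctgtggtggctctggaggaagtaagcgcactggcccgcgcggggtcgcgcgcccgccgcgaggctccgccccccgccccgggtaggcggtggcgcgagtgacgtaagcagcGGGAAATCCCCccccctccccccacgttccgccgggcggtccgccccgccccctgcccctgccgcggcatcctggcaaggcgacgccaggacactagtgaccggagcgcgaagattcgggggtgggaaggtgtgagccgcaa

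In Nfkbia the match GGAAATTCCC begins 29 bases before the annotated start, and in Bcl3 the match GGGAAGTCCC begins 2 bases after it. Rel holds the overlapping matches GGGAAATCCC and GGAAATCCCC from 92 and 91 bases before its start. The second Nfkb2 window holds 2 core matches, GGAATGTCCC and GGGACTTTCC. The third Nfkb2 window overlaps the second, and its core match GGGACTTTCC is the same site, not a further one. Other degenerate matches stood in the first Nfkb2 window, in Nfkbie and in 1 of the 2 Tnfaip3 windows. There was none in the Rela window. Of 32851 promoters of the same length, 8.46% held the degenerate consensus and 1.47% the core motif. The interferon-response core (GAAA, any 2 bases, GAAA), held by 3.44% of promoters on either strand, was in no window of the 7 genes. A match is a description of letters, and no binding was measured.

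In bulk LSK RNA, Bcl3 and Relb were higher in KO cells and no member of the group was lower. Bcl3 (ENSMUSG00000053175, chromosome 7) had 13.9, 14.3 and 14.54 CPM in KO libraries, against 6.95, 6.41 and 8.61 CPM in WT libraries. All 3 KO values stood above all 3 WT values. The log2 fold change, KO over WT, was 0.97 ± 0.13 (SE, n = 3 each) with an adjusted p of 0.000421 in edgeR's quasi-likelihood test. In such bulk samples fewer cells of a type and less RNA per cell cannot be told apart. Relb (ENSMUSG00000002983, chromosome 7), the partner of p52 in the slower, non-canonical arm of the pathway, had 4.76, 5.78 and 5.68 CPM in KO libraries, against 4.18, 3.64 and 3.66 CPM in WT libraries. These groups did not overlap either, and the log2 fold change was 0.49 ± 0.15 (SE) with an edgeR adjusted p of 0.0251. The Relb call was lost without KO 2, KO 3 or WT 2 and with library size alone (adjusted p 0.0777, 0.0835, 0.0704 and 0.0548, in a range over all alternatives of 0.0184 to 0.0835), while Bcl3 was called in every alternative run. These 2 of 10 genes compare with 44.2% of all 14405 genes called in either direction with 21.6% called higher and 22.6% lower. The members' median log2 fold change was 0.09, and that of all genes tested was -0.02. Strandedness of the counting is not given in the sources used here, so reads of Bcl3 and the overlapping Gm16174, of Nfkb1 and Gm46827, and of Nfkb2 and its neighbours 4833438C02Rik and Psd cannot be told apart where they overlap.

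**Figure D1:**
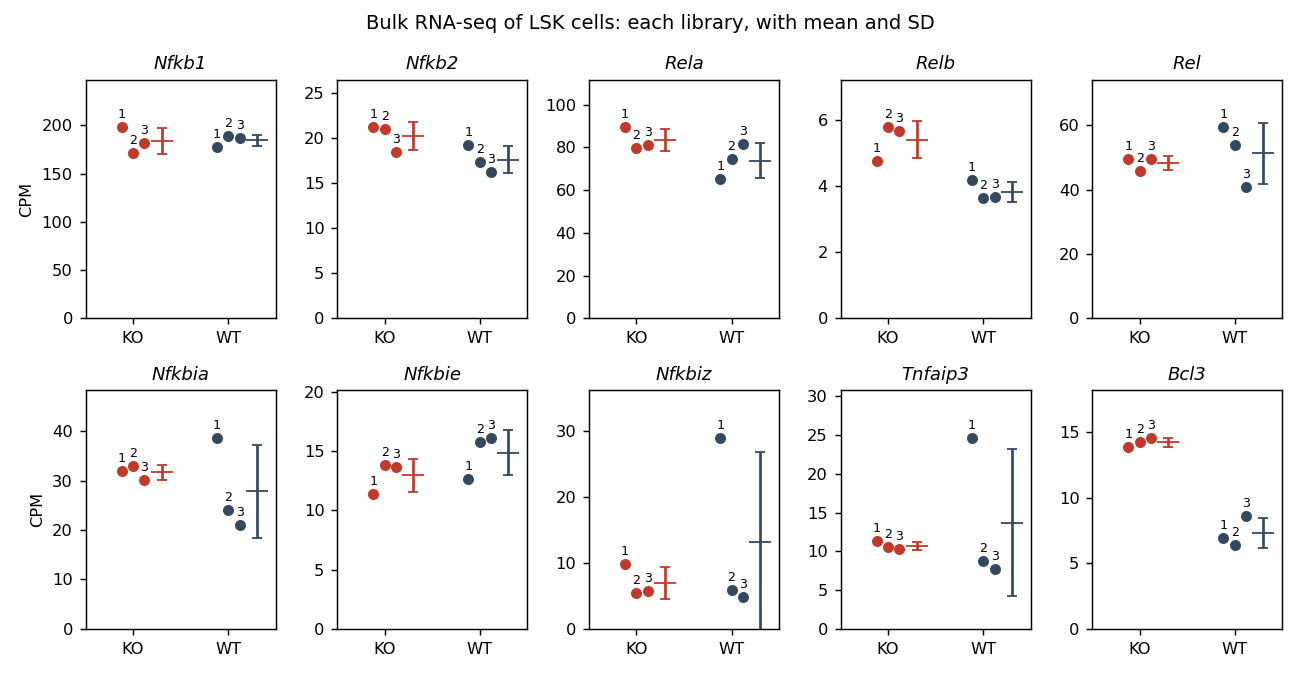
CPM of each of the 10 genes in the 3 KO and 3 WT bulk LSK libraries, one panel a gene; points are libraries, numbered by replicate, and bars give the mean and SD (the WT bar of Nfkbiz runs below 0 and ends at the axis). Bcl3 and Relb are the panels where every KO point lies above every WT point, and library WT 1 stands far above the other libraries for Nfkbiz and Tnfaip3.

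The other subunits did not pass the test. Nfkb1 (ENSMUSG00000028163, chromosome 3) averaged 184 ± 13.4 CPM in KO and 184 ± 6.16 CPM in WT libraries (SD, n = 3 each), a log2 fold change of -0.005 ± 0.07 (SE). Rela (ENSMUSG00000024927, chromosome 19), which carries the main transactivating subunit, had 89.4, 79.7 and 81.3 CPM in KO libraries, against 65.1, 74.7 and 81.5 CPM in WT libraries. The groups overlapped, and the log2 fold change was 0.18 ± 0.09 (SE; edgeR adjusted p 0.145). Without WT 3 Rela was called higher (0.29, adjusted p 0.0234, in a range over the alternatives of 0.0234 to 0.403). Nfkb2 (ENSMUSG00000025225, chromosome 19) had 21.1, 21.0 and 18.4 CPM in KO libraries, against 19.2, 17.3 and 16.2 CPM in WT libraries, with an edgeR adjusted p of 0.157. Rel (ENSMUSG00000020275, chromosome 11) had 49.6, 45.9 and 49.5 CPM in KO libraries, inside the WT spread of 59.3, 53.8 and 40.7 CPM. Nfkbie (ENSMUSG00000023947, chromosome 17) averaged 13.0 ± 1.37 CPM in KO and 14.8 ± 1.89 CPM in WT libraries (SD, n = 3 each), an overlap of the groups.

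The feedback genes Nfkbiz, Tnfaip3 and Nfkbia turned on a single library, WT 1. Nfkbiz (ENSMUSG00000035356, chromosome 16) had 9.80, 5.37 and 5.68 CPM in KO libraries, against 28.9, 5.90 and 4.80 CPM in WT libraries. Tnfaip3 (ENSMUSG00000019850, chromosome 10) had 11.3, 10.6 and 10.3 CPM in KO libraries, against 24.6, 8.73 and 7.67 CPM in WT libraries. Nfkbia (ENSMUSG00000021025, chromosome 12) had 32.0, 32.9 and 30.1 CPM in KO libraries, against 38.6, 24.1 and 20.9 CPM in WT libraries. In each of the 3 genes WT 1 was the highest of the 6 libraries, and every KO value lay within the range of the WT values. With all 6 libraries none was called (log2 fold changes -0.93 ± 0.60, -0.36 ± 0.38 and 0.18 ± 0.19 in that order, SE). Without WT 1 the values were 0.38 for Nfkbiz, 0.38 for Tnfaip3 (adjusted p 0.0290, in a range over the alternatives of 0.0290 to 0.705) and 0.49 for Nfkbia (adjusted p 0.00290, in a range of 0.00290 to 0.860). The number of members called without WT 1 was 4, all higher in KO: Bcl3, Relb, Nfkbia and Tnfaip3. In that setting 6565 of all 14705 genes were called, 3197 of them higher and 3368 lower, so calls were common among all genes too.

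WT 1 also stood apart in immediate early genes, which respond to handling and growth signals within minutes. The 12 such genes of a list chosen after the data were seen, all of them above 0 in every bulk library, summed to 498, 213 and 279 CPM in KO libraries, against 1819, 321 and 246 CPM in WT libraries. Fos had 324 CPM in WT 1 and 9.06 to 67.6 CPM in the other 5 libraries. In single cells both first replicates were higher than both second ones, as the list summed to 908 and 235 CPM in the libraries labelled KO, against 1877 and 258 CPM in those labelled WT. In those libraries Nfkbia was at 72.6 and 52.2 CPM (labelled KO), against 97.0 and 46.5 CPM (labelled WT). Nfkbiz followed with 14.3 and 9.27 CPM against 17.4 and 10.1 CPM, and Tnfaip3 with 2.34 and 1.24 CPM against 4.81 and 1.85 CPM. In all 3 genes both first replicates stood above both second replicates. What part this state of the libraries had in the values of the 3 genes was not tested. Bcl3 did not share the split: its replicate 1 libraries were the lower ones in both single-cell groups.

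**Figure D2:**
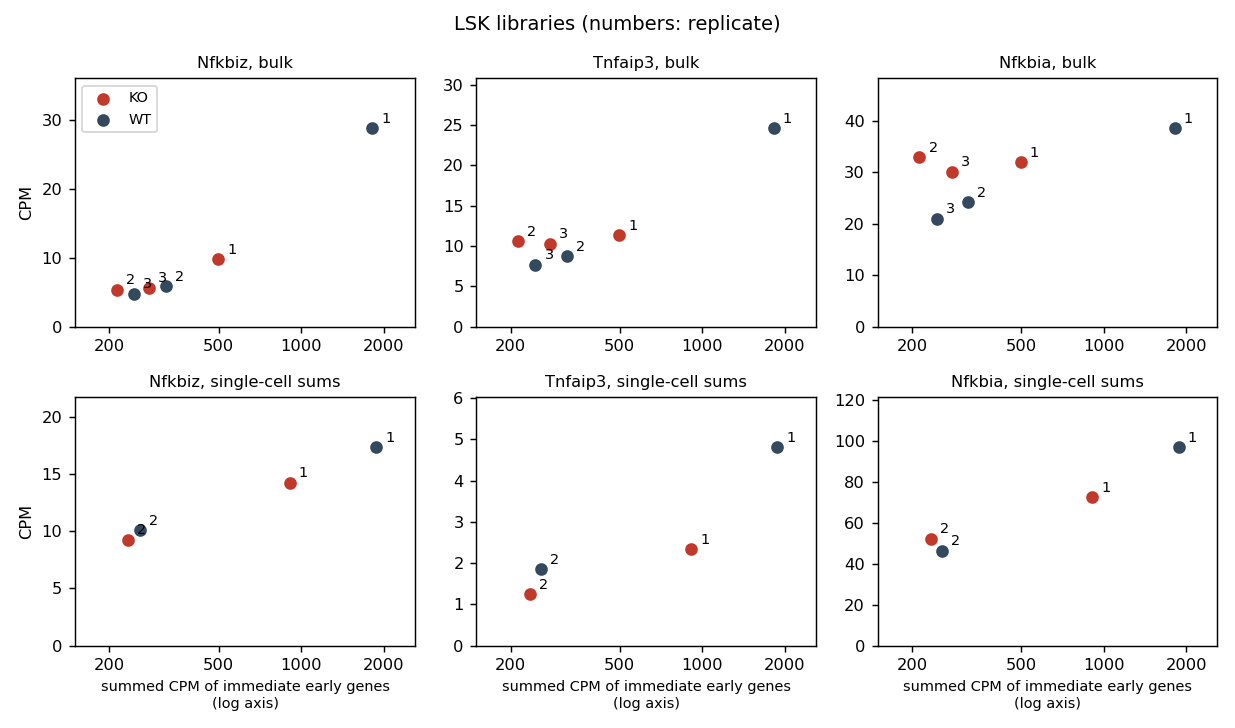
CPM of Nfkbiz, Tnfaip3 and Nfkbia against the summed CPM of 12 immediate early genes (log axis) in each bulk LSK library (top) and single-cell library sum (bottom); red points are KO and dark points WT libraries, numbered by replicate. The first WT library of each table lies at the right and at the top of all 6 panels, at 1819 summed CPM in bulk and 1877 in single cells.

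Cell-type markers moved with genotype in the sorted cells. The 8 granulocyte markers summed to 3785 to 3853 CPM in bulk KO libraries, against 1558 to 1706 CPM in WT libraries, and 6 of 8 were called higher. The 8 mast cell and basophil markers summed to 65.9 to 74.4 CPM in KO, against 30.7 to 36.7 CPM in WT. Dendritic markers (7 genes) summed to 26.5 to 31.1 CPM in KO, against 72.6 to 165 CPM in WT, and lymphoid markers (9 genes) to 525 to 539 CPM in KO, against 1028 to 1201 CPM in WT. The 10 stem cell markers, of the cells the sort aims at, summed to 449 to 511 CPM in KO, against 618 to 861 CPM in WT, with 8 called lower and 1 higher. Erythroid markers (10 genes) summed to 649 to 790 CPM in KO, against 952 to 1255 CPM in WT, and 4 were called lower. All 8 granulocyte and all 7 dendritic markers were above 0 in every bulk library. The part of these cell types in the Bcl3 and Relb values was not tested.

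Upstream of the subunits, 46 kinases, adaptors and other regulators were all tested in bulk, 13 higher and 5 lower in KO, with a median log2 fold change of 0.03, where 21.6% of all genes were called higher and 22.6% lower. Ripk1, the kinase that joins tumour necrosis factor receptors to the IkB kinase complex, averaged 145 ± 5.14 CPM in KO and 76.4 ± 0.73 CPM in WT libraries (SD, n = 3 each; log2 fold change 0.92). Tradd, its adaptor at the same receptor, averaged 27.7 ± 1.81 CPM in KO and 15.7 ± 0.95 CPM in WT (0.82). Nlrc5, an interferon-inducible activator of class I antigen genes that also binds the IkB kinases, had the largest rise of this list (log2 fold change 1.64 ± 0.21, SE). Tnip2, a partner of A20, and Nkrf, a repressor of NF-kB sites, were also higher, by log2 fold changes of 0.74 and 0.63. Among the lower ones were Tab1, Btrc, Itch and Traf2, with log2 fold changes of -0.48, -0.30, -0.28 and -0.25.

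Of 29 activating ligands and receptors, 24 were tested, 4 higher and 6 lower in KO, with a median of -0.22. Tlr2, a receptor for bacterial lipoproteins, averaged 52.9 ± 6.01 CPM in KO and 19.5 ± 1.60 CPM in WT libraries (SD, n = 3 each; log2 fold change 1.44). Ltbr, the lymphotoxin receptor that feeds the RelB arm, averaged 62.3 ± 2.33 CPM in KO and 37.7 ± 3.17 CPM in WT (0.73). Cd14 and Il1rap were the other 2 that were higher, and 5 of the 6 that were lower were Tnfsf11, Tlr9, Tnfsf13b, Tnfrsf13c and Tlr3, with log2 fold changes of -1.24 to -0.89. Of 36 inflammatory genes that NF-kB is known to induce, 22 were tested, 5 higher and 3 lower, with a median of 0.01. Cxcl10, a chemokine that interferon also induces, averaged 7.53 ± 1.68 CPM in KO and 0.39 ± 0.15 CPM in WT libraries (SD, n = 3 each; log2 fold change 4.24). Ccl5 (1.46), Gadd45b (1.21), Csf1 (0.61) and Sod2 (0.36) were also higher, while Ccl4 (-1.40), Mmp9 (-1.11) and Ebi3 (-0.74) were lower. Each list held genes in both directions, and over all genes 44.2% were called. In INPUT, where 1.18% of all genes were called and 0.614% called higher, none of 43 tested regulators or 16 tested ligands and receptors was called, and 1 of 15 tested inflammatory genes was called higher.

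H3K4me3 was measured over 3 kb windows around transcript starts, and each gene was represented by its strongest window. Bcl3 was the 1 member of 10 called, with the mark higher in KO, against 3.22% of all 51039 windows called higher, 4.66% called lower and 7.88% called in either direction. Its window, at the Bcl3-205 start (chromosome 7, position 19815996, minus strand), had 49.5 and 53.3 CPM in KO, against 32.9 and 30.8 CPM in WT. The groups were apart, with a log2 fold change of 0.69 ± 0.19 (SE, n = 2 each; edgeR adjusted p 0.0122). The Relb window had 57.9 and 57.0 CPM in KO, against 41.6 and 36.2 CPM in WT, so both KO values were above both WT values (log2 fold change 0.56 ± 0.20, SE; adjusted p 0.0608). For Nfkbia the window had 80.0 and 79.1 CPM in KO, against 54.6 and 53.1 CPM in WT, again without overlap (log2 fold change 0.56 ± 0.22, SE; adjusted p 0.0902). Nfkb1 was the 1 gene of the 10 whose KO and WT windows overlapped, with 66.1 and 55.7 CPM in KO, against 56.8 and 40.7 CPM in WT. The share of all windows without overlap is not given here, so this is not a trait of the 10 genes.

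All 10 log2 fold changes of the mark were above 0, from 0.26 for Rela to 0.69 for Bcl3, with a median of 0.49 where all windows tested had -0.15. This direction was general to strong windows: of the 7976 windows with a level inside the members' range, 98.5% had a log2 fold change above 0, with a median of 0.32, and 2.34% were called higher. Scaled and tested among the 15960 marked windows alone (mean log2 CPM of at least 4), 9 of 10 members were above 0 with a median of 0.18, against 0.006 for those windows. In that fit none of the 10 was called by edgeR, and Bcl3 stood at 0.39 ± 0.10 (log2 fold change with SE; adjusted p 0.0593, in a range over all alternatives of 1.47e-08 to 0.0628). The Bcl3 call was also lost without the second WT library (adjusted p 0.0628).

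Several members have more than 1 start, and in a fit of every distinct window the starts of a gene could be compared. At Bcl3 the 2 upstream starts, at 19822157 and 19822770, share most of their windows and are not separate measurements. They had log2 fold changes of 0.60 and 0.60, close to the 0.56 of the strongest window. Nfkbiz differed by start: the window of Nfkbiz-204 (chromosome 16, position 55822138) had a log2 fold change of 0.38 (adjusted p 0.0327) and that of Nfkbiz-201 (55838899) had 0.13 (adjusted p 0.360); the difference between them was not tested. Nfkb1 had 2 strong internal starts (chromosome 3, positions 135608270 and 135608483), which also share most of their windows. Their log2 fold changes were 0.01 and 0.004, beside 0.19 at the main start of the gene. A window inside the gene, at Nfkb1-206 (position 135667799), was called lower (log2 fold change -1.15, adjusted p 0.0342) on 14 and 28 counts in KO, against 52 and 40 counts in WT. The 5 starts of Relb share most of their windows and gave 0.43 to 0.44.

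**Figure D3:**
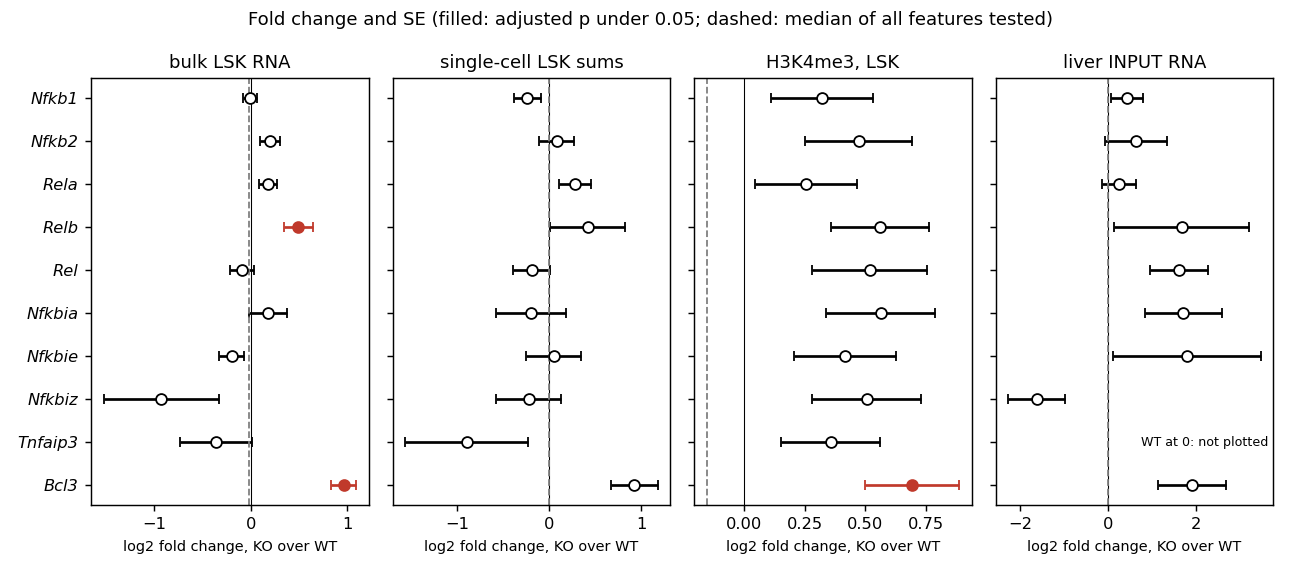
Log2 fold change, KO over WT, with its SE for each gene in bulk LSK RNA, single-cell LSK sums, H3K4me3 at the strongest window and liver INPUT RNA; filled red points have an adjusted p under 0.05 and the dashed line is the median of all features tested. Bcl3 lies to the right of 0 in all 4 panels, and Tnfaip3 in INPUT is not drawn because its WT libraries are at 0.

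In whole liver RNA, Tnfaip3 was the 1 member of 10 called between KO and WT INPUT, against 1.18% of 14657 genes called in either direction with 0.614% higher and 0.566% lower. It had 28 and 81 counts (6.95 and 24.8 CPM) in KO livers and 0 counts in both WT livers. A count of 0 allows up to 3 counts, which stand for 1.16 and 1.23 CPM in the WT libraries, so the KO mean was at least 13.3-fold higher (floor taken per library). The edgeR adjusted p was 0.0345, and the call was lost without KO 1 (0.0508), without KO 2 (0.127) and with the INPUT libraries fitted alone (0.165, in a range over the alternatives of 4.33e-05 to 0.238). The J2 libraries of the same livers had 125 and 100 counts in KO and 19 and 6 counts in WT, so the direction held there too. Bcl3 had 14.9 and 15.6 CPM in KO INPUT, against 2.70 and 5.31 CPM in WT INPUT, groups that did not overlap (log2 fold change 1.92 ± 0.78, SE; adjusted p 0.242). Nfkbiz was the 1 member with a negative value, with 13.6 and 4.59 CPM in KO INPUT, against 40.6 and 15.9 CPM in WT INPUT (log2 fold change -1.62 ± 0.65, SE; adjusted p 0.235).

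The other 9 values were above 0, with a median over the 10 of 1.65 beside 0.02 for all genes, and the same 1.65 with Tnfaip3 at its bound. Nfkbia had 18.1 and 29.97 CPM in KO INPUT, against 11.2 and 3.27 CPM in WT INPUT, and Nfkb1 had 49.4 and 52.0 CPM, against 49.1 and 25.3 CPM. Marker lists moved with genotype in the same libraries. Granulocyte markers summed to 439 to 500 CPM in KO INPUT, against 173 to 215 CPM in WT INPUT, and monocyte and macrophage markers to 390 to 447 CPM, against 229 to 270 CPM. Hepatocyte markers summed to 19669 to 20671 CPM in KO INPUT, against 9966 to 13260 CPM in WT INPUT, and the 10 interferon-stimulated genes to 656 to 821 CPM, against 17.2 to 33.6 CPM. Their part in the values of the 10 genes was not tested. In data simulated on these libraries, edgeR called 0% of 200 genes changed 2-fold. The adjusted p threshold depends on how many genes change, so this share does not show what size of change was detectable in the real INPUT data.

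J2 pull-down was compared with INPUT of the same animals. Rel was higher in J2 in every animal. It had 67.6 and 63.8 CPM in J2 of KO livers, against 17.9 and 5.50 CPM in their INPUT, and 42.0 and 51.4 CPM in J2 of WT livers, against 1.54 and 6.13 CPM in their INPUT. The J2 over INPUT log2 fold changes were 2.47 ± 0.59 in KO (adjusted p 0.00756) and 3.60 ± 0.66 in WT (adjusted p 0.00230; SE, n = 2 animals each). Rela went the other way in all 4 animals, with 22.9 and 21.4 CPM in J2 of KO livers, against 68.7 and 51.4 CPM in their INPUT, and 12.4 and 24.2 CPM in J2 of WT livers, against 44.4 and 55.6 CPM in their INPUT. Its log2 fold changes were -1.44 ± 0.40 in KO and -1.45 ± 0.40 in WT (adjusted p 0.0166 and 0.0224). Nfkbia was also lower in J2, at 4.08 and 3.89 CPM against 18.1 and 29.97 CPM in INPUT of KO livers, and at 2.44 and 0.50 CPM against 11.2 and 3.27 CPM in INPUT of WT livers. The WT values rest on only 11 and 2 counts in J2 and on 29 and 8 counts in INPUT. The Nfkbia difference passed the test in KO (-2.58 ± 0.89, adjusted p 0.0476) and not in WT (-2.26 ± 0.95, adjusted p 0.108), with no test showing that the 2 differ (difference -0.32 ± 1.33, adjusted p 0.974).

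In KO livers 3 of 10 members were called, Rel, Rela and Nfkbia, against 30.4% of all genes (15.3% higher and 15.1% lower). In WT livers 3 of 10 were called, Rel, Rela and Tnfaip3, against 23.9% of all genes (13.2% higher and 10.7% lower). The Tnfaip3 call in WT rests on 19 and 6 J2 counts over INPUT libraries at 0, at least 2.40-fold. The Rel calls held when any single library was left out. The KO call of Rela was lost without the first INPUT, the first J2 or the second J2 library (adjusted p 0.117, 0.110 and 0.127), and that of Nfkbia without any one of the 4 (0.0792 to 0.221). The WT call of Rela was lost without the second INPUT or the first J2 library (0.0656 and 0.202), and that of Tnfaip3 without either INPUT or the first J2 library (0.0749, 0.0696 and 0.107). With library size alone the WT call of Rela (0.0725) and the KO call of Nfkbia (0.0777) were lost, and that of Nfkbia also with RLE scaling (0.0512).

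**Figure D4:**
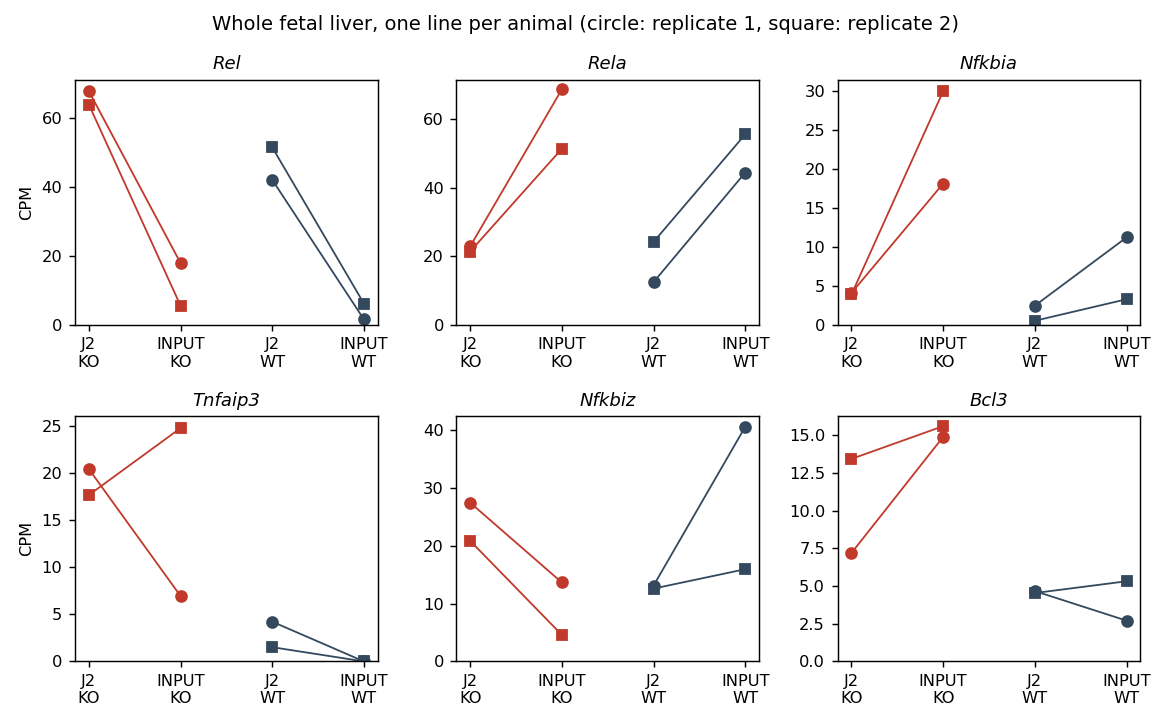
CPM of 6 of the genes in the J2 pull-down and the INPUT of whole fetal liver, one line per animal, KO livers (red) on the left of each panel and WT livers (dark) on the right; circles are replicate 1 and squares replicate 2. All 4 lines of Rel fall from J2 to INPUT and all 4 lines of Rela climb, while for Nfkbiz the KO and WT lines slope in opposite directions.

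None of the 10 members, and 0% of all 14657 genes, was called by edgeR for a J2 over INPUT ratio that differed between KO and WT. At an unadjusted p under 0.05 there were 2 members, Nfkbiz and Tnfaip3, beside 1340 of the 14657 genes. DESeq2 called 0 members, beside 73 of 25183 genes. The Nfkbiz ratio was 2.01 and 4.54 in KO animals, against 0.32 and 0.79 in WT animals, above 1 in both KO livers and below 1 in both WT livers. The log2 difference of the ratios was 2.53 ± 0.90 (SE; unadjusted p 0.0164, edgeR adjusted p 0.487), which fails the correction. For Rel the ratio was 3.79 and 11.6 in KO animals, against 27.2 and 8.38 in WT animals, ranges that overlapped (adjusted p 0.716). These ratios rest on 72 and 18 INPUT counts in KO animals and on 4 and 15 INPUT counts in WT animals.

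In the single-cell table, each library's kept cells were added up before testing, because cells are not replicates. None of the 10 members was called by edgeR, where 0.00748% of 13374 genes (1 gene) was called. At an unadjusted p under 0.05 there was 1 member, Bcl3, beside 1932 of the 13374 genes. DESeq2 called 0 members, beside 804 of 14780 genes. In data simulated on these sums edgeR called 1.01% of the genes changed 2-fold. Bcl3 had 72 and 120 counts (7.66 and 9.93 CPM) in the libraries labelled KO, against 31 and 41 counts (4.52 and 4.75 CPM) in those labelled WT. The groups did not overlap, and the log2 fold change was 0.92 ± 0.25 (SE; adjusted p 0.275), near the 0.97 of bulk. Relb had 3.30 and 3.39 CPM in the libraries labelled KO, against 3.06 and 1.97 CPM in those labelled WT. Bcl3 and Relb were the 2 members whose KO libraries all stood above their WT libraries in bulk, single-cell, H3K4me3, INPUT and J2 data alike. The share of all genes that did so is not given here. For Relb the WT livers had only 8 and 1 counts in INPUT and 0 and 10 counts in J2. INPUT and J2 come from the same livers, and genotype cannot be told apart from sex in the single-cell table. Nfkb1 went the other way in this table, with 35.0 and 34.0 CPM in the libraries labelled KO, against 39.0 and 42.2 CPM in those labelled WT (log2 fold change -0.23 ± 0.15, SE; adjusted p 0.526).

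Cells were clustered without the 10 genes, without the genes called in bulk and without mitochondrial and ribosomal protein genes, which left 8802 genes and gave 11 clusters. Of these, 4 could be named from markers: an erythroid-like cluster (8), a late neutrophil-like one (9), a lymphoid-like one (10) and a megakaryocyte-like one (11). Cluster 7 was led by the MHC class II genes H2-Aa, H2-Ab1 and H2-Eb1 together with Clec7a, Lgals3, Ly86, Ccr2 and Lyz2, which monocytes and macrophages also express, and it goes by its number here. The others held most cells and stayed unnamed too. Clusters 4 and 6 were led by the immediate early genes Egr1, Fos and Jun and held 1812 and 163 cells of the libraries labelled KO, against 1206 and 83 cells of those labelled WT.

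Nfkbia ranged from 27.0 CPM in the erythroid-like cluster to 106 CPM in cluster 7, with 104 CPM in the late neutrophil-like cluster and 106 CPM in cluster 6. Rel, the subunit best known from lymphocytes and antigen-presenting cells, ranged from 3.52 CPM in the erythroid-like to 23.1 CPM in cluster 7. Nfkb1 ranged from 14.9 CPM in the late neutrophil-like to 55.5 CPM in cluster 7. In every one of the 4 libraries the cells of cluster 7 stood above the erythroid-like cells for Nfkbia (85.0 to 128 against 17.1 to 30.1 CPM), for Nfkb1 (31.6 to 62.8 against 14.96 to 27.2 CPM) and for Rel (21.3 to 26.4 against 0.86 to 7.48 CPM). With 4 pairs the exact permutation test cannot go below a two-sided p of 0.125. Rela stood the other way in all 4 libraries, at 18.3 to 23.7 CPM in cluster 7 and 23.0 to 29.9 CPM in erythroid-like cells, ranges that overlapped. The levels of Nfkbiz and Tnfaip3 over clusters rested on few counts from single libraries (6 counts for Nfkbiz in the lymphoid-like cluster, 5 of them from WT 1), so no order of clusters is given for them. Neither Tnfaip3 nor Bcl3 had a count among the 78 cells of the megakaryocyte-like cluster.

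**Figure D5:**
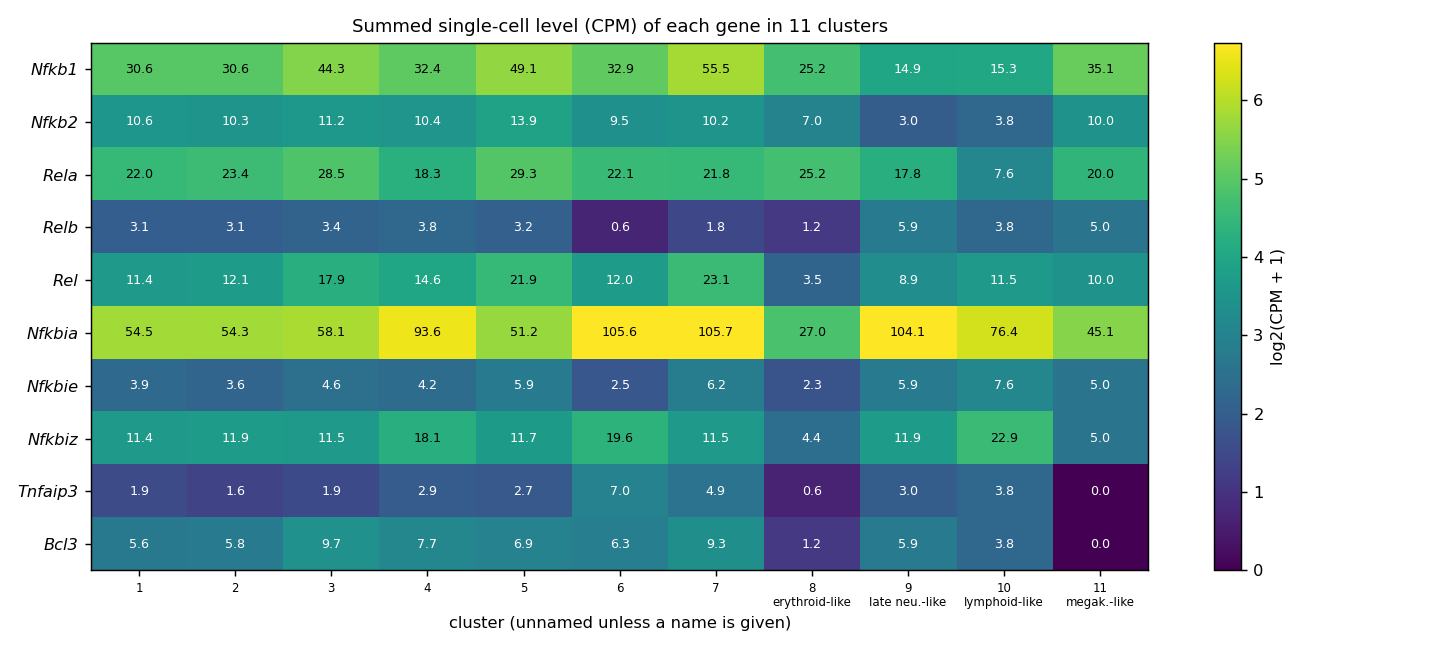
Summed single-cell level of each of the 10 genes in the 11 clusters, printed in CPM and coloured as log2(CPM + 1); named clusters carry their marker-based name and the others stayed unnamed. Nfkbia spans 27.0 CPM in the erythroid-like cluster to 106 CPM in cluster 7, and Rel spans 3.52 to 23.1 CPM between the same clusters.

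The clusters divide the same 4 libraries, so they are not further replicates of the Bcl3 difference. In 5 of the 8 clusters with at least 20 cells in every library both libraries labelled KO were above both labelled WT for Bcl3, and in 0 of 8 were both below. The share of all genes that did so is not given here. In cluster 1 Bcl3 rested on 4 and 10 counts in the libraries labelled KO, against 2 and 4 in those labelled WT. In cluster 7 it was at 15.2 and 13.2 CPM in the libraries labelled KO, against 6.82 and 7.39 CPM in those labelled WT, on 5 counts in each of the first 3 of these libraries and 6 in the last. In the unnamed cluster 3, led by Angpt1, it was at 8.49 and 12.2 CPM in the libraries labelled KO, against 3.83 and 6.55 CPM in those labelled WT. Nfkb1 was lower in both libraries labelled KO in 3 of the 8 clusters and higher in 0, again without the share over all genes. Tested on sums per class, 0 of the 4 members tested in cluster 7 and 0 of the 3 tested in erythroid-like cells were called by edgeR, against 1.33% and 3.59% of genes, and none of them had an unadjusted p under 0.05.

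For members with at least 500 counts, the genes whose level ran most alike over the 11 clusters were Ccnd2 and Rp2 for Nfkb1 (Pearson r of log2 CPM 0.95 and 0.94), Ifih1 and Zfp322a for Rela (0.98 and 0.97), Laptm5 and Pik3cd for Rel (0.95 and 0.94), and Ier2 and Tuba1a for Nfkbia (0.93 and 0.91). The clusters share libraries and differ in depth, and these values are a description of the most alike among the genes with at least 500 counts. Ier2 is an immediate early gene. In the clusters led by immediate early genes Nfkbia was at 85.9 and 88.8 CPM in the libraries labelled KO, beside 70.9 and 52.3 CPM in clusters 1, 2, 3 and 5 of the same libraries. In the libraries labelled WT it was at 110.5 and 40.7 CPM, beside 85.7 and 45.6 CPM, the last pair resting on 6 counts in the led clusters.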

How the data were processed

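Libraries were grouped by genotype from the labels: bulk LSK RNA (3 KO, 3 WT), H3K4me3 CUT&RUN, single-cell RNA, INPUT and J2 (2 KO and 2 WT each). The authors deposited raw counts per gene, per transcript-start window or per cell, with no normalization. The submitters' processing notes name Seurat 3.0, edgeR, bedtools, Picard 2.9.0, STAR 2.5.3a, Bowtie2 2.2.9 and the build GRCm38.p5, without roles. The counting tool, annotation, strandedness and the handling of duplicates are not given in the sources used here, and such settings can shift reads between overlapping genes.

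From the deposited counts, TMM-scaled CPM and edgeR 4.0.16 quasi-likelihood tests (R 4.3.3) were computed over all genes passing edgeR's filter on low counts, with Benjamini-Hochberg adjustment and a threshold of 0.05. SEs are the log2 fold change divided by the square root of F. The 8 J2 and INPUT libraries were fitted together with a mean per group. H3K4me3 used the strongest window of each gene. Barcodes were kept from 500 counts upward if mitochondrial genes took less than 20% (15678 of 15707 cells, with 8 barcodes shared between libraries; doublets were not removed), summed per library for testing and clustered with scanpy 1.11.5 (Python 3.11.15; 2000 variable genes, 30 components, 15 neighbours, resolution 1). Clusters were named from marker lists, and 1 that matched the dendritic list kept its number because monocyte and macrophage genes outnumbered its markers among its leading genes, a choice made after those genes were seen. Median counts per cell and other depths limit precision, and floors of 3 counts cover counting error only, while SDs and SEs carry the spread between libraries. The biological coefficient of variation was 12.1% in bulk, 45.4% in J2 and INPUT, 11.5% in H3K4me3 and 23.9% in single-cell sums.

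The 10 genes and all gene lists were chosen with earlier results of these data known, and the immediate early, interferon-stimulated, sex and deleted-gene lists were added after these data were seen. All 10 genes are named. Of 3 further pathway lists, up to 5 called genes per direction with the largest bulk change are named (1 of them is not reported here), and for likeness the 2 genes with the highest correlation over clusters.

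Bulk replicate numbers are shared between KO and WT, and same-numbered libraries deviated together (r = 0.44, 0.15 and 0.22). The main tests used no pairing in any assay, and replicate or animal blocks were run only as alternatives. J2 and INPUT share an animal by protocol. On data simulated from these libraries with 200 genes changed 2-fold, edgeR called 79% in bulk and 70.5% in H3K4me3. The real bulk data called 6367 genes, so the adjusted p threshold was not alike and these shares do not carry over to them. Alternatives were RLE scaling, library size alone, no filter, DESeq2 1.42.0, replicate blocks, other window sets and leaving out each library.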

Additional observations from a re-analysis of the deposited data

Results flagged for a closer look

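Nfkb1 had values of opposite sign in single-cell LSK sums and in whole liver, without overlap of the groups in either. In the single-cell sums both libraries labelled KO (35.0 and 34.0 CPM) were below both labelled WT (39.0 and 42.2 CPM), a log2 fold change of -0.23. In liver INPUT both KO libraries (49.4 and 52.0 CPM) were above both WT libraries (49.1 and 25.3 CPM), a log2 fold change of 0.44. Neither value passed its test (edgeR adjusted p 0.526 and 0.571), the 2 tables were scaled separately, and the difference between them was not tested. The lower WT value in INPUT came from 1 library, and the other stood beside the KO values. In bulk LSK RNA the KO and WT libraries overlapped (log2 fold change -0.005 ± 0.07, SE).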

How the results depend on the processing

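Over the single members, 762 pairs of a result and an alternative were run: 663 kept direction and side of the threshold, 25 lost a call, 25 gained one and 49 turned in sign. Members called in bulk were 1 with library size alone, and 1 to 4 when single libraries were left out. The INPUT count was 0 with the INPUT libraries alone and 0 with them and a replicate block, and 0 to 1 without single libraries. J2 over INPUT gave 1 to 3 in KO and 1 to 3 in WT. H3K4me3 gave 3 with library size alone, 2 with DESeq2, 10 with the replicate block, 6 with every distinct window, 0 with marked windows only, and 0 to 4 without single libraries. The H3K4me3 and single-cell replicates share only a number (r = 0.64 and 0.60 over 2 pairs), and the replicate block raised the calls over all windows to 20842, beside 4024 without it. The blocks changed no call of a member in bulk, J2 or single-cell data.

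Nfkb1 in bulk was 0.0020 with RLE scaling, 0.010 with no filter and 0.020 with DESeq2. With library size alone Nfkb1 in J2 over INPUT was 0.15 in KO and 0.039 in WT, and Rela in the KO minus WT difference was -0.11. Rela in H3K4me3 was -0.053 with marked windows only. The causes were not tested. Leaving out single libraries turned these signs, given as lowest to highest log2 value. In bulk Nfkb1 ran from -0.030 to 0.083, Nfkbiz from -1.28 to 0.38, Rel from -0.19 to 0.029 and Tnfaip3 from -0.60 to 0.38. In INPUT Nfkb2 ran from -0.61 to 1.26 and Rela from -0.013 to 0.44. In J2 over INPUT of KO livers Relb ran from -0.57 to 0.00071 and Tnfaip3 from -0.32 to 1.48. In that of WT livers Bcl3 ran from -0.19 to 0.77, Nfkb1 from -0.75 to 0.20, Nfkbie from -2.80 to 5.57 and Relb from -5.86 to 1.54. In the KO minus WT difference Nfkb1 ran from -0.32 to 0.64, Nfkb2 from -1.20 to 0.67, Nfkbia from -1.46 to 1.20, Nfkbie from -6.99 to 1.38, Rel from -2.41 to 0.033, Rela from -0.38 to 0.57 and Relb from -1.83 to 5.57. In single-cell sums Nfkbia ran from -0.63 to 0.43, Nfkbie from -0.16 to 0.24 and Nfkbiz from -0.57 to 0.22. In single-cell cluster 7 Nfkbia ran from -0.47 to 0.33, Rel from -0.17 to 0.17 and Rela from -0.35 to 0.063, and in erythroid-like cells Nfkb1 from -0.28 to 0.036 and Nfkbia from -0.16 to 0.20.

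Counts over all genes moved more. INPUT called 173 genes, and 329 with library size alone, 798 with no filter, 813 with DESeq2, 25 alone and 20 alone with the block. H3K4me3 called 814 with DESeq2, 12979 with every window and 659 with marked windows. The single-cell sums called 1, and 804 with DESeq2, 11 with no filter and 117 with the block. The KO minus WT difference called 0, and 3, 103, 73 and 10 with library size alone, no filter, DESeq2 and the animal block. Library size alone split the calls 2463 higher to 4143 lower in bulk (3114 to 3253 with TMM), 1305 to 3309 in H3K4me3 (1644 to 2380), 271 to 58 in INPUT (90 to 83), and in J2 over INPUT 2933 to 1730 in KO (2246 to 2216) and 2910 to 998 in WT (1937 to 1566). It moved the median of all windows of H3K4me3 to -0.40, beside -0.15, and that of INPUT genes to 0.29, beside 0.02.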
